A study of Mus musculus with 36 samples.

Results

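The dystrophin-glycoprotein complex and biglycan were followed through 9 genes, Dmd, Utrn, Dag1, Sgca, Sgcb, Sgcd, Sntb1, Dtna and Bgn, each taken by its symbol from the 51912 Ensembl gene IDs of the RNA-seq count tables. All 9 were present once in both tables and passed the filter on low counts in every comparison. The libraries came from the tibialis anterior (TA) and the soleus, hindlimb muscles rich in fast and in slow fibers, of 3-month-old male C57BL/6 mice. WT mice were compared with ∆Ig3-MuSK mice, which carry on both alleles a CRISPR-Cas9 deletion of Musk exons 6 and 7 that removes the BMP-binding Ig3 domain of the muscle-specific kinase MuSK in every cell. There were 9 libraries in each of the 4 groups that these genotypes and muscles make, each library from whole muscle, so that fewer cells of a type and less RNA per cell cannot be told apart.

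The complex links the actin cytoskeleton inside a muscle fiber to the basal lamina outside it. Dystrophin, or its close relative utrophin at the synapse, binds dystroglycan, which crosses the membrane and holds laminin through its sugar chains, while the sarcoglycans brace dystroglycan in the membrane and syntrophins and dystrobrevins carry signaling proteins to its inner face. Biglycan is a small leucine-rich proteoglycan of the matrix that binds dystroglycan, alpha- and gamma-sarcoglycan and MuSK, and loss of dystrophin or of a sarcoglycan causes muscular dystrophy.

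The members are spread over the genome (GRCm38). Dmd (ENSMUSG00000045103, dystrophin) lies on the X chromosome from 82948870 to 85206141 on the plus strand. Bgn (ENSMUSG00000031375, biglycan) is on the same chromosome and strand, from 73483602 to 73495933. Utrn (ENSMUSG00000019820, utrophin) lies on chromosome 10 from 12382188 to 12869365, and Dag1 (ENSMUSG00000039952, dystroglycan) on chromosome 9 from 108204634 to 108263958, both on the minus strand. Of the sarcoglycan genes, all on the minus strand, Sgca (ENSMUSG00000001508) lies on chromosome 11 from 94962791 to 94976327 and Sgcd (ENSMUSG00000020354) on the same chromosome from 46896253 to 47988969, whereas Sgcb (ENSMUSG00000029156) is on chromosome 5 from 73632749 to 73647790. Sntb1 (ENSMUSG00000060429, beta-1-syntrophin) lies on chromosome 15 from 55636388 to 55906949 on the minus strand. Dtna (ENSMUSG00000024302) encodes alpha-dystrobrevin. The counts of a gene cover every exon of it. Their longest annotated transcripts run from 1724 bp for Sgca to 14910 bp for Dmd, and Dtna alone shares exon bases with another gene, 90 bp with an antisense gene whose reads cannot be separated in libraries without strand information.

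Promoter sequence from RefSeq (GRCm38.p6) was searched for 7 of the 9 members. The 250 bases before the start are shown for 3 members called higher in the soleus of both genotypes, a cytoskeletal linker, the laminin receptor and the matrix ligand. Capitals mark E-boxes (CANNTG, the letters that MyoD-family factors read) and, in Dmd, a CArG box, the motif of serum response factor. The windows are chrX:82948620-82948869 (plus strand) for Dmd, chr9:108263959-108264208 (minus strand) for Dag1 and chrX:73483351-73483600 (plus strand) for Bgn.
Dmd: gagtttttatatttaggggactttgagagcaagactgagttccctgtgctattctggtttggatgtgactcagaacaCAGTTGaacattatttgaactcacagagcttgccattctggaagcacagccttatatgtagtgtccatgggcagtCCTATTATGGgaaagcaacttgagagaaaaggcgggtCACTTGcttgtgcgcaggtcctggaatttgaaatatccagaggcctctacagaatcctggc
Dag1: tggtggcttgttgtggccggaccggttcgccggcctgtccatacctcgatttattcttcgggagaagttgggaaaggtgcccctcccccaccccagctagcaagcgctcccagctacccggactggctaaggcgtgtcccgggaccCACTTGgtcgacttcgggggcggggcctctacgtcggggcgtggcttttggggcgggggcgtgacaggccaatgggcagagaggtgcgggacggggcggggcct
Bgn: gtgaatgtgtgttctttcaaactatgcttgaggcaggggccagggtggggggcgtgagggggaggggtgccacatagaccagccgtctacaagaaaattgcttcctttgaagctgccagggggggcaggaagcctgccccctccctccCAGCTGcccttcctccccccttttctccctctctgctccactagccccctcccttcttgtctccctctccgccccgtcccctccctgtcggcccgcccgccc
An E-box occurred in a window of 6 of the 7 members, and in 66.2% of the 32851 promoter windows of the same length in the table. The 7 members had 9 windows, and a member was counted when any of its windows held the motif. Shares over all windows are per window, a different unit. The CArG box of Dmd began 98 bases before the start, and 1.47% of all windows hold one. The E-box of Bgn is CAGCTG, a form found in 13% of all windows. GGCGCC, a motif bound by BMP-activated SMADs, was searched because MuSK is a BMP co-receptor. It occurred in a window of 1 member, a second start of Dag1, and in 9.59% of all windows. Both strands were searched, and matches describe the letters only.

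TA libraries held 49287472 to 78660422 counts and soleus libraries 43492062 to 60426556, and each member was covered by at least 37 counts in every library. Values are given as CPM, counts divided by library sizes that carry the TMM factors edgeR computed over all 36 libraries. The muscles matched their labels: the summed CPM of 5 slow-fiber markers was at most 120.3 in a TA library and at least 14619 in a soleus library. Musk itself was measured over all its exons, so the deletion is not seen directly. Its CPM ran from 2.86 to 5.58 (median 3.80) in WT TA, from 2.62 to 4.01 (median 3.08) in ∆Ig3-MuSK TA, from 12.5 to 18.4 (median 14.7) in WT soleus and from 8.07 to 17.5 (median 10.5) in ∆Ig3-MuSK soleus. The genotypes overlapped, and the log2 fold change was −0.46 in the TA (SE 0.12, adjusted p = 0.135) and −0.44 in the soleus (SE 0.13, adjusted p = 0.0978) by the edgeR test used throughout. Of the 18 TA libraries, 3 stood apart on one measure, the median log2 CPM deviation of genes with transcripts of at least 8 kb minus that of genes with transcripts of at most 2 kb. WT replicates 3 and 5 were at −0.62 and −0.74 and ∆Ig3-MuSK replicate 3 at −0.28, compared with −0.18 to 0.25 for the other TA libraries. Results for the TA are therefore also given without these libraries.

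Levels of different genes were compared per length, as CPM divided by the kilobases of all annotated exons. Sgca, which encodes alpha-sarcoglycan, had the highest mean in each of the 4 groups, from 62.1 ± 5.98 CPM per kb (SD, n = 9) in WT soleus to 69.0 ± 10.1 (SD, n = 9) in WT TA. Sntb1 had the lowest mean, from 0.323 ± 0.110 (SD, n = 9) in WT TA to 0.427 ± 0.108 (SD, n = 9) in ∆Ig3-MuSK soleus. In WT TA the order below Sgca was Sgcb, Dag1, Bgn, Dtna, Dmd, Utrn, Sgcd and Sntb1, and in WT soleus it was Dag1, Sgcb, Bgn, Dmd, Dtna, Utrn, Sgcd and Sntb1. In WT TA the library ranges of Sgcb and Dag1, of Bgn and Dtna, of Dmd and Utrn, and of Utrn and Sgcd overlapped. Within a library Dmd was nonetheless above Utrn in 9 of 9, Sgcb above Dag1 and Bgn above Dtna in 8 of 9 each, and Utrn above Sgcd in 6 of 9. In WT soleus the overlapping neighbors were Sgcb and Bgn (Sgcb above in 7 of 9 libraries), Dtna and Utrn (Dtna above in 6 of 9), and Utrn and Sgcd (Utrn above in 9 of 9). Dag1 rose above Sgcb between the muscles, with 22.2 ± 4.74 and 28.8 ± 1.79 CPM per kb (SD, n = 9) in WT TA and 37.8 ± 1.72 and 20.4 ± 0.786 (SD, n = 9) in WT soleus. With the longest annotated transcript as the length, Bgn in WT soleus came to 40.0 rather than 17.5 CPM per kb and passed Sgcb. Dtna in WT soleus came to 8.45 rather than 3.14 CPM per kb and passed Dmd, Dtna also passed Bgn in the TA, and Sgcd passed Utrn in all 4 groups.

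**Figure D1:**
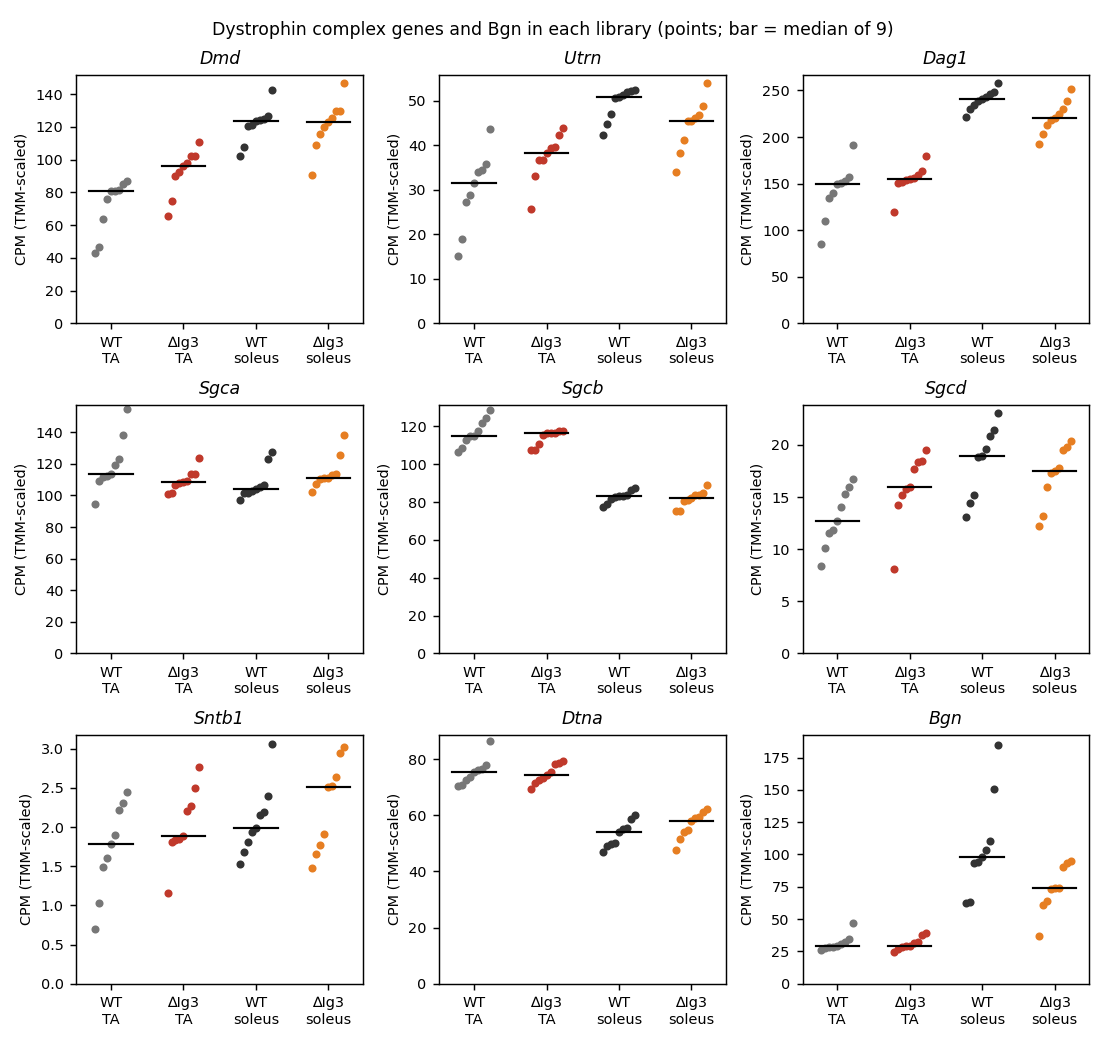
CPM of each of the 9 genes (y axis, linear from 0) in the 36 libraries, grouped by genotype and muscle on the x axis; each point is 1 library and each bar the median of 9. Dmd, Dag1 and Bgn sit higher in the soleus and Sgcb and Dtna lower, whereas WT and ∆Ig3-MuSK points overlap in every panel within a muscle.

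Genotype was compared first in the fast TA. None of the 9 members passed the test in the ∆Ig3-MuSK TA (edgeR quasi-likelihood test with Benjamini-Hochberg adjustment over all genes, called at adjusted p under 0.05 and at least 1.2-fold), where 0.0149% of the 20075 genes tested were called. At an unadjusted p under 0.05 there was 1 member, Dmd, against a background of 24.1% of genes, and DESeq2 and limma-voom also called 0 members. The median log2 fold change over the members was 0.13, compared with −0.00316 over all genes tested, and 5 of the 9 were higher.

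Dystrophin transcript showed the lowest p-value of the members in the TA. Dmd ran from 43.1 to 86.7 CPM (median 80.7) in WT TA and from 65.7 to 110.6 CPM (median 95.9) in ∆Ig3-MuSK TA. The ranges overlapped, as they did for all 9 members (0.0299% of genes had separate ranges), although 7 of the 9 ∆Ig3-MuSK libraries lay above the highest WT library. Its log2 fold change was 0.37 (standard error, SE, 0.13, adjusted p = 0.163 by edgeR's quasi-likelihood test). Without the 3 TA libraries that stood apart it was 0.27 (SE 0.07, adjusted p = 0.0809). In a single fit over all 36 libraries, which pools the spread of both muscles, the adjusted p was 0.0475 and Dmd was called, along with 3.32% of all genes.

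Utrn, which encodes utrophin, ran from 15 to 43.6 CPM (median 31.5) in WT TA and from 25.6 to 43.8 CPM (median 38.3) in ∆Ig3-MuSK TA. Its 2 lowest WT libraries were below every ∆Ig3-MuSK library, and otherwise the groups overlapped. The log2 fold change was 0.31 (SE 0.15, adjusted p = 0.21 by edgeR). Dag1 was at a median of 149.2 CPM (85.2 to 191.3) in WT TA and 154.7 CPM (119.4 to 179.2) in ∆Ig3-MuSK TA. The groups overlapped, with a log2 fold change of 0.13 (SE 0.11, adjusted p = 0.465).

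The sarcoglycans did not share a direction in the TA. Sgcd, delta-sarcoglycan, had medians of 12.7 CPM (8.39 to 16.8) in WT and 16 CPM (8.06 to 19.5) in ∆Ig3-MuSK, a log2 fold change of 0.30 (SE 0.14, adjusted p = 0.21 by edgeR). Sgca had medians of 113.9 CPM (94.9 to 154.5) and 108.7 CPM (100.7 to 123.9), a log2 fold change of −0.13 (SE 0.07, adjusted p = 0.274). The genotypes overlapped in both genes. Sgcb, Dtna and Bgn had log2 fold changes of −0.03 (SE 0.05), −0.01 (SE 0.05) and −0.02 (SE 0.10), with adjusted p-values of 0.659, 0.878 and 0.91. These 3 differences are small beside the spread among libraries, and their signs turned positive when counts were scaled by library totals alone. Sntb1, with the fewest counts, ran from 0.693 to 2.45 CPM (median 1.78) in WT TA and from 1.15 to 2.77 CPM (median 1.89) in ∆Ig3-MuSK TA. It had a log2 fold change of 0.24 (SE 0.19, adjusted p = 0.438). In the edgeR fit without the 3 TA libraries that stood apart, 0 members were called. There the log2 fold change was 0.20 for Utrn (SE 0.08, adjusted p = 0.207) and 0.27 for Sgcd (SE 0.09, adjusted p = 0.116). It was 0.04 for Dag1, 0.12 for Sntb1, −0.09 for Sgca, −0.06 for Sgcb, 0.02 for Dtna and −0.02 for Bgn.

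Transcript length moved with these values. In the TA the median log2 fold change was 0.20 over the 852 genes with transcripts of at least 8 kb, of which 87.3% were higher in ∆Ig3-MuSK, and −0.09 over the 7416 genes of at most 2 kb, of which 35.0% were higher. The long-minus-short measure ran from −0.74 to 0.17 (median −0.05) in WT TA and from −0.28 to 0.25 (median 0.20) in ∆Ig3-MuSK TA. In a fit with a length offset for each library, chosen after the data were seen, the log2 fold change fell to 0.10 for Dmd (adjusted p = 0.32) and 0.09 for Utrn (adjusted p = 0.458) and was 0.25 for Sgcd (adjusted p = 0.265) and −0.07 for Sgca (adjusted p = 0.51). The 14910 bp transcript of Dmd and the 12382 bp transcript of Utrn are the longest of the members. The part of the length measure in these values beyond the offset was not tested.

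**Figure D2:**
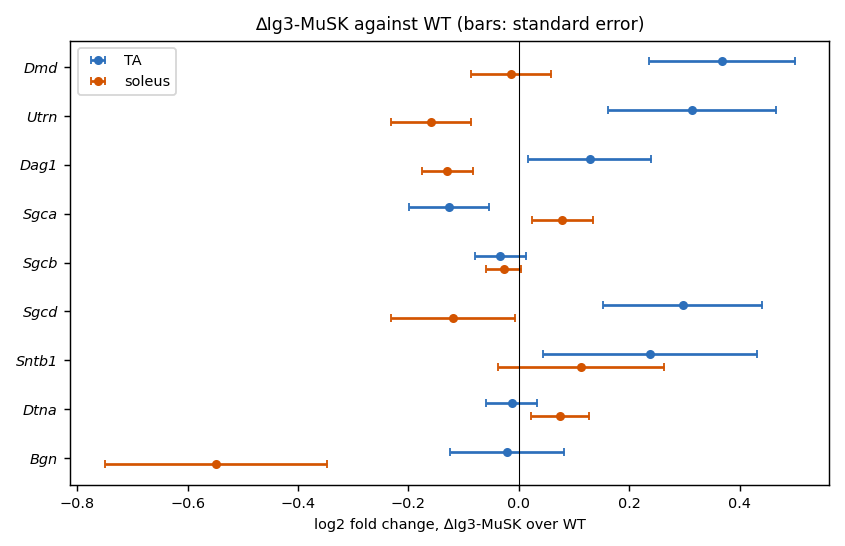
Log2 fold change of ∆Ig3-MuSK over WT (x axis) for each of the 9 genes (y axis) in the TA and the soleus; points are edgeR estimates from 18 libraries and bars their standard errors. Dmd, Utrn and Sgcd lie near 0.3 to 0.4 in the TA and at or below 0 in the soleus, and Bgn lies at −0.55 in the soleus; no point passed the adjusted test.

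In the slow soleus, 0 of the 9 members were called between the genotypes, against 0.952% of the 19439 genes tested, 0.365% higher and 0.586% lower. At an unadjusted p under 0.05 there were 3 members, Utrn, Dag1 and Bgn, all lower in ∆Ig3-MuSK, where 18.5% of all genes were past that limit, 8.48% higher and 10.1% lower. DESeq2 and limma-voom also called 0 members. The median log2 fold change of the members was −0.03, compared with −0.0017 over all genes.

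Bgn had the largest difference of the members. It ran from 62.3 to 184.6 CPM (median 97.8) in WT soleus and from 36.7 to 94.9 CPM (median 74.1) in ∆Ig3-MuSK soleus. The ranges overlapped, as for all but 0.0772% of genes, but all 9 ∆Ig3-MuSK libraries lay below the WT median and 5 WT libraries lay above the highest ∆Ig3-MuSK library. The log2 fold change was −0.55 (SE 0.20, adjusted p = 0.15 by edgeR's quasi-likelihood test). It was −0.40 without WT replicate 7, the library with the most Bgn, and −0.46 without ∆Ig3-MuSK replicate 8, the library with the least.

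Markers of several cell types moved with Bgn in the soleus. The summed CPM of 6 fibroblast markers ran from 388.1 to 1414 (median 619) in WT soleus and from 227.2 to 642.6 (median 414.6) in ∆Ig3-MuSK soleus. Most of this sum was Col1a1 (means 300.6 CPM in WT and 154.8 in ∆Ig3-MuSK) and Col3a1 (277.2 and 172.0). Pdgfra, Dpt, Pi16 and Mfap5 had means of 24.7, 29.5, 41.8 and 17.3 CPM in WT. In ∆Ig3-MuSK these were 21.7, 29.4, 30.5 and 13.9 CPM. For 4 tendon cell markers the sums ran from 140.7 to 395.3 (median 230.2) and from 22.1 to 241.3 (median 167.9). Most of the tendon sum was Thbs4, with means of 199 and 126 CPM. Of the fibroblast and tendon markers, 0 of 6 and 0 of 4 were called. At an unadjusted p under 0.05, 2 of each list were lower, where 10.1% of all genes were lower. WT replicate 7 held the highest fibroblast sum and ∆Ig3-MuSK replicate 8 the lowest fibroblast and tendon sums. Over the 18 soleus libraries, with each group mean subtracted, log2 CPM of Bgn and the log2 fibroblast sum were related by r = 0.95 (Pearson) and rho = 0.96 (Spearman), which is a description of libraries from the same tissue. With the tendon sum the values were r = 0.85 and rho = 0.85, with the macrophage sum r = 0.67 and rho = 0.82, and with the fast-fiber sum r = −0.87 and rho = −0.84. Median fast-fiber sums were 14197 CPM in WT soleus and 19166 CPM in ∆Ig3-MuSK soleus, and median macrophage sums 31.1 and 26.2 CPM, with 0 markers of either list called or past an unadjusted p of 0.05. The part of tissue makeup in the Bgn difference was not tested. In the TA, Bgn had medians of 29.4 CPM in both genotypes, with ranges of 25.8 to 46.7 in WT and 24.8 to 39.5 in ∆Ig3-MuSK, and fibroblast sums had medians of 413.4 and 463. Over the 18 TA libraries Bgn had r = 0.75 and rho = 0.66 with the fibroblast sum and r = 0.71 and rho = 0.72 with the tendon sum. With the macrophage sum the TA values were r = 0.64 and rho = 0.49, and with the fast-fiber sum r = −0.02 and rho = −0.02.

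Dystroglycan and utrophin transcripts were slightly lower in the ∆Ig3-MuSK soleus without passing the adjusted test. Dag1 ran from 221.1 to 258.5 CPM (median 241.1) in WT and from 192.4 to 251.1 CPM (median 220.7) in ∆Ig3-MuSK, and 5 of the ∆Ig3-MuSK values fell short of every WT value. Its log2 fold change was −0.13 (SE 0.05, adjusted p = 0.139 by edgeR), a difference of less than 1.2-fold. Utrn ran from 42.2 to 52.4 CPM (median 50.8) in WT and from 34.1 to 53.9 CPM (median 45.5) in ∆Ig3-MuSK, a log2 fold change of −0.16 (SE 0.07, adjusted p = 0.241). Over the 18 soleus libraries, group means subtracted, Dag1 was related to the adipocyte marker sum by r = −0.74 (rho = −0.76) and to the synaptic marker sum by r = 0.78 (rho = 0.74). These were the lowest and the highest values of Dag1 among the marker lists in the soleus. Its r was 0.61 with the smooth muscle and pericyte sum, 0.60 with the slow-fiber sum and 0.54 with the satellite cell sum. Over the 18 TA libraries the adipocyte value was r = 0.22 (rho = 0.23) and the synaptic value r = 0.43 (rho = 0.45). The adipocyte sum had medians of 23 CPM (14.6 to 97.4) in WT and 46.7 CPM (6.76 to 91.3) in ∆Ig3-MuSK soleus, and the synaptic sum 45.7 CPM (35.4 to 52.8) and 39.3 CPM (30.4 to 48.8), with 0 of 4 markers called in each list. One of the synaptic markers is Musk, the targeted gene, which had medians of 14.7 CPM in WT and 10.5 CPM in ∆Ig3-MuSK soleus. The part of these sums in the Dag1 difference was not tested.

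Dystrophin transcript had nearly the same level in both genotypes of the soleus. Dmd ran from 101.9 to 142.2 CPM (median 123.3) in WT and from 90.5 to 146.7 CPM (median 123) in ∆Ig3-MuSK, a log2 fold change of −0.01 (SE 0.07, 95% interval −0.16 to 0.13, adjusted p = 0.939 by edgeR). The log2 fold changes of Sgca, Sgcb and Sgcd were 0.08, −0.03 and −0.12 (SEs 0.05, 0.03 and 0.11). Dtna and Sntb1 were at 0.07 and 0.11 (SEs 0.05 and 0.15). Adjusted p-values of these 5 genes lay between 0.462 and 0.729, and the genotypes overlapped in each.

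The muscles themselves differed far more than the genotypes. In WT mice 7 of the 9 members were called between soleus and TA, 5 higher and 2 lower in the soleus, where 57.5% of the 20841 genes tested were called, 30.2% higher and 27.3% lower. The members' count is read against this background, in which most genes were called. The members' median log2 fold change was 0.50 compared with 0.02 over all genes. Muscle and any difference in how the table of each muscle was made cannot be told apart. With library totals alone the median of all genes moved to 0.20 in this contrast and to −0.14 in the interaction, so that changes are read relative to these shifts.

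The membrane linkers and their matrix ligand were higher in the soleus. Bgn had the largest difference, with the WT ranges of 25.8 to 46.7 CPM in the TA and 62.3 to 184.6 CPM in the soleus separate. Its log2 fold change was 1.76 (SE 0.17, adjusted p = 9.57e-12 by edgeR), a 3.38-fold difference. It was the only member past 2-fold, a limit that 9.12% of all genes passed upward. Fibroblast and tendon marker sums were higher in WT soleus too, with medians of 619 against 413.4 CPM and 230.2 against 97.4 CPM, and 4 of 6 fibroblast and 4 of 4 tendon markers were called higher, beside 30.2% of all genes.

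Dmd and Dag1 did not overlap between the muscles of WT mice, with every soleus library above every TA library. Ranges were separate for 5 members in all, Dmd, Dag1 and Bgn higher and Sgcb and Dtna lower in the soleus, and for 28.3% of all genes. The log2 fold change was 0.76 (SE 0.11, adjusted p = 1.67e-07) for Dmd and 0.77 (SE 0.09, adjusted p = 9.12e-10) for Dag1 by edgeR. Utrn followed at 0.72 (SE 0.12, adjusted p = 3.65e-06), with 1 overlapping library in each muscle, and Sgcd at 0.50 (SE 0.13, adjusted p = 0.00125). Without the 3 TA libraries that stood apart these values were 0.60 for Dmd, 0.63 for Dag1, 0.54 for Utrn and 0.38 for Sgcd, and all 4 were still called.

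Beta-sarcoglycan and alpha-dystrobrevin ran the other way. Sgcb ran from 106.4 to 128.8 CPM (median 115.1) in WT TA and from 77.5 to 87.6 CPM (median 83) in WT soleus. Dtna ran from 70.3 to 86.6 CPM (median 75.5) in WT TA and from 46.9 to 60.1 CPM (median 53.9) in WT soleus. Neither gene's muscles overlapped, nor did they in ∆Ig3-MuSK mice, where soleus libraries held at most 89 CPM of Sgcb and 62.4 CPM of Dtna and TA libraries at least 107.4 and 69.4 CPM. The log2 fold changes were −0.50 for Sgcb (SE 0.04, adjusted p = 5.12e-14) and −0.51 for Dtna (SE 0.05, adjusted p = 5.11e-11). Sgca, at a median of 103.8 CPM in WT soleus, had a log2 fold change of −0.15 (SE 0.07, adjusted p = 0.0481), which is under the 1.2-fold limit, and its sign turned to 0.04 with library totals alone. The sarcoglycan genes therefore differed in direction between the muscles, Sgcd higher, Sgcb lower and Sgca short of the limit. Sntb1 was not called, at 0.27 (SE 0.18, adjusted p = 0.181).

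In ∆Ig3-MuSK mice 5 of the 9 members were called between the muscles, 3 higher and 2 lower in the soleus, against 56.1% of genes, 28.5% higher and 27.6% lower. Bgn was higher by a log2 fold change of 1.24 (SE 0.17, adjusted p = 2.78e-08 by edgeR; 2.37-fold, past 2-fold as were 8.66% of genes upward), Dag1 by 0.52 (SE 0.09, adjusted p = 2.41e-06) and Dmd by 0.39 (SE 0.11, adjusted p = 0.00226). Sgcb at −0.48 (SE 0.04, adjusted p = 1.53e-13) and Dtna at −0.41 (SE 0.05, adjusted p = 9.46e-09) were lower. Of these, Dag1, Sgcb and Dtna had separate ranges, as did 29.4% of all genes, whereas the muscles overlapped for Dmd and Bgn. Utrn was at 0.25 (SE 0.12, adjusted p = 0.0667) and Sgcd at 0.10 (SE 0.13, adjusted p = 0.526), and neither was called. Utrn was called when ∆Ig3-MuSK soleus replicate 2 (adjusted p = 0.0356) or ∆Ig3-MuSK TA replicate 4 (adjusted p = 0.0467) was left out, and with the length offset (log2 fold change 0.32, adjusted p = 2.04e-05).

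**Figure D3:**
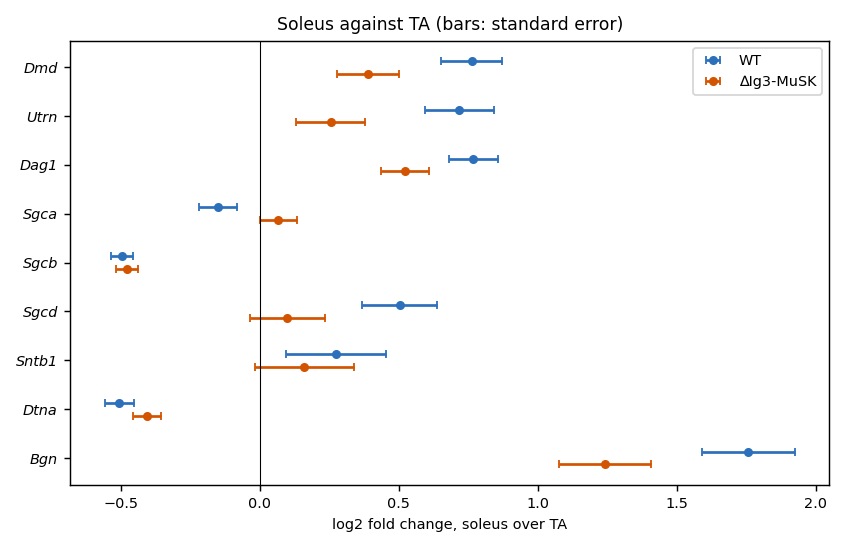
Log2 fold change of soleus over TA (x axis) for each of the 9 genes (y axis) in WT and in ∆Ig3-MuSK mice; points are edgeR estimates from the fit over 36 libraries and bars their standard errors. Bgn is the farthest right in both genotypes, Sgcb and Dtna lie near −0.5 to −0.4 in both, and Dmd, Utrn, Dag1 and Sgcd lie farther right in WT.

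Whether the genotype difference itself differed between the muscles was tested by the interaction, the soleus log2 fold change minus that of the TA. Of the 9 members 0 were called, and of the 20841 genes 0% were called by edgeR. At an unadjusted p under 0.05 there were 5 members, 4 negative and Sgca positive, where 24.9% of all genes were past that limit, 11.2% negative and 13.7% positive. DESeq2 called 0 members, and limma-voom with sample quality weights called Utrn (adjusted p = 0.0311) among 6.49% of all genes. The interaction was −0.46 for Utrn (SE 0.17, adjusted p = 0.117 by edgeR), −0.51 for Bgn (SE 0.23, adjusted p = 0.165), −0.40 for Sgcd (SE 0.19, adjusted p = 0.18) and −0.37 for Dmd (SE 0.16, adjusted p = 0.143). For Sgca it was 0.22 (SE 0.10, adjusted p = 0.159). Utrn passed the threshold when WT TA replicate 9 was left out (adjusted p = 0.0444), and with the length offset its interaction was −0.22 and that of Dmd −0.08. In the edgeR fit over all 36 libraries no member's interaction passed the Benjamini-Hochberg adjustment over all genes. Without the 3 TA libraries that stood apart the interaction was −0.36 for Utrn (adjusted p = 0.098) and −0.28 for Dmd (adjusted p = 0.148).

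Other genes of the pathway were taken in 6 lists of 48 genes, 46 of which were tested in the TA and in the fit over both muscles and 44 in the soleus. Between the genotypes 0 of these were called in either muscle. At an unadjusted p under 0.05, 8 were higher and 5 lower in the ∆Ig3-MuSK TA, where 12.2% of all genes were higher and 12% lower, and 1 was higher and 10 lower in the soleus, where 8.48% were higher and 10.1% lower. The 3 chains of collagen VI, a biglycan-binding collagen of the muscle matrix, were among those lower in the soleus. Col6a1, Col6a2 and Col6a3 had log2 fold changes of −0.47, −0.49 and −0.53 (SEs 0.17, 0.17 and 0.18, adjusted p between 0.129 and 0.14), close to the −0.55 of Bgn.

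Between soleus and TA in WT mice, 22 of the 46 list genes were called higher and 10 lower, beside 30.2% of all genes higher and 27.3% lower. Of the 11 other subunits of the complex, 9 were tested and 2 were higher and 2 lower (median log2 fold change −0.07). Of 12 dystroglycan glycosylation genes, 3 were higher and 5 lower (median −0.16), and of 8 dystroglycan ligands, 6 were higher and 1 lower (median 0.52). Of 7 other small leucine-rich proteoglycans 3 were higher and 1 lower (median 0.33), of 3 collagen VI genes 2 were higher (median 0.71), and of 7 cytoskeletal partners 6 were higher and 1 lower (median 0.72). The median over all genes was 0.02.

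Flnc and Fmod were among the list genes with the largest positive differences. Flnc encodes filamin C, an actin crosslinker that binds sarcoglycans, and had a log2 fold change of 1.80 (SE 0.11, adjusted p = 3.02e-17 by edgeR). Fmod, fibromodulin, a tendon-rich relative of biglycan, was at 1.72 (SE 0.35, adjusted p = 4.37e-05), and its CPM in ∆Ig3-MuSK soleus ran from 1.72 to 216.3.

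The largest negative differences were those of Krt8, Nos1 and B3galnt2. Nos1, the neuronal nitric oxide synthase that docks on the complex through syntrophin, ran from 72.5 to 160.5 CPM in WT TA and from 22.7 to 39.6 CPM in WT soleus, with a log2 fold change of −1.79 (SE 0.13, adjusted p = 2.85e-15 by edgeR). B3galnt2, which extends the sugar chain of dystroglycan, was at −1.47 (SE 0.07, adjusted p = 1.37e-19). Krt8, a keratin that joins dystrophin to the contractile lattice, was called lower but had only 0 to 6 counts in WT soleus libraries and 21 to 40 in WT TA libraries, so its fold is not given.

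Within groups, some members rose and fell together from library to library, to degrees that differed between the muscles. After each group mean was subtracted, log2 CPM over the 36 libraries, which may share animals between the muscles, gave r = 0.91 (Pearson) and rho = 0.72 (Spearman) for Utrn and Dag1, 0.86 and 0.81 for Dmd and Utrn, and 0.79 and 0.73 for Dmd and Sgcd. In the TA and the soleus apart, r was 0.94 and 0.73 for Utrn and Dag1, 0.94 and 0.54 for Dmd and Utrn, and 0.78 and 0.86 for Dmd and Sgcd. Some other pairs changed sign, such as Utrn and Sntb1 at 0.87 in the TA and −0.25 in the soleus. Sgca had negative values with these genes, r = −0.55 and rho = −0.41 for Utrn, −0.45 and −0.46 for Sgcd, −0.42 and −0.20 for Dag1, and −0.31 and −0.27 for Dmd. In the soleus alone r of Sgca was −0.56 with Utrn, −0.45 with Sgcd, −0.12 with Dag1 and −0.17 with Dmd. For Bgn the values were r = 0.03 and rho = 0.07 with Dmd, r = 0.08 and rho = 0.13 with Dag1, and r = 0.23 and rho = 0.35 with Utrn. These are descriptions of libraries that also differ in their long-minus-short measure. With that measure Utrn had r = 0.97 and rho = 0.91, Dmd r = 0.90 and rho = 0.84, and Dag1 r = 0.88 and rho = 0.69. Sgcd had r = 0.79 and rho = 0.72, Sntb1 r = 0.60 and rho = 0.31, and Sgcb r = 0.50 and rho = 0.33. The values were r = −0.51 and rho = −0.37 for Sgca, −0.12 and −0.11 for Dtna, and 0.19 and 0.27 for Bgn.

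**Figure D4:**
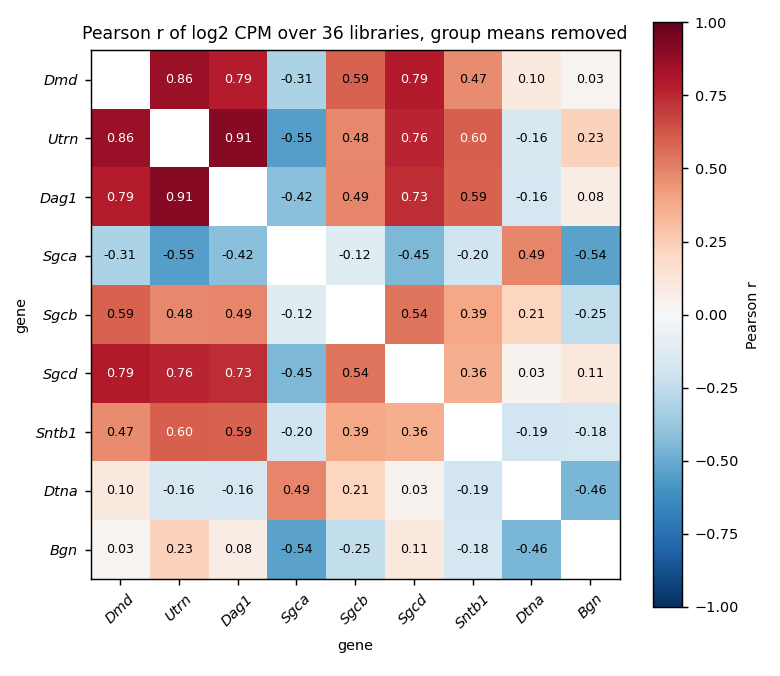
Pearson r of log2 CPM between each pair of the 9 genes (both axes) over 36 libraries after the mean of each group was subtracted, on a color scale from −1 to 1. Dmd, Utrn, Dag1 and Sgcd form a block of r from 0.73 to 0.91, and Sgca and Bgn have negative or low values with it.

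**Figure D5:**
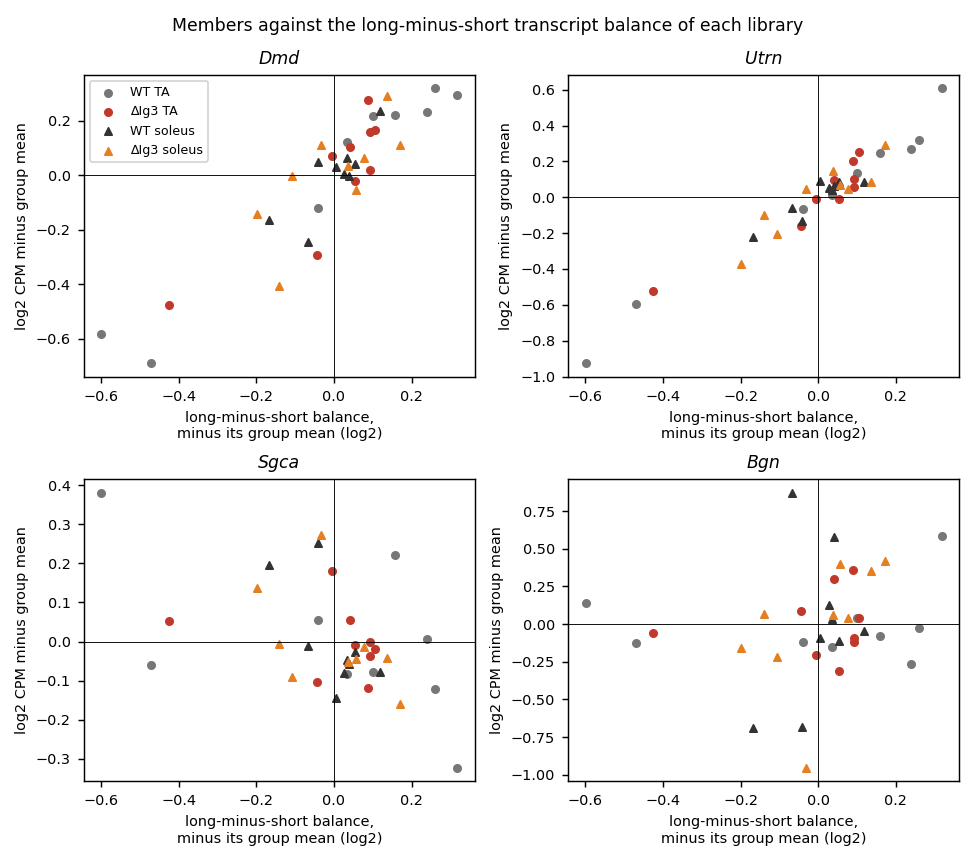
Log2 CPM of Dmd, Utrn, Sgca and Bgn minus the group mean (y axis) against the long-minus-short transcript measure of each library minus its group mean (x axis, log2); each point is 1 of 36 libraries. Dmd and Utrn rise along the axis (r = 0.90 and 0.97), and the 3 TA libraries that stood apart lie at the far left.

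For each member the 3 genes with the most similar pattern were listed by Pearson r over the same 36 libraries. For Dmd they were Huwe1 (r = 0.95), Birc6 (r = 0.95) and Cep350 (r = 0.95), with longest transcripts of 14579, 15768 and 13307 bp. For Utrn they were Wdfy3 (r = 0.96), Vps13c (r = 0.96) and Dync1h1 (r = 0.95), with 14274, 11527 and 14342 bp. For Dag1 they were Prrc2a, Fry and Dvl3, with r of 0.94 for each. Bgn was most like the collagen genes Col1a2 (r = 0.91) and Col5a2 (r = 0.91) and the matrix metalloprotease gene Mmp2 (r = 0.91), whose transcripts are 5348, 6625 and 3078 bp long.

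The remaining members had looser matches. Those of Sgcd were Hipk2 (r = 0.88), Pggt1b (r = 0.86) and Wnk1 (r = 0.86), and those of Sgca were Abcf2 (r = 0.85), the glycolytic gene Pkm (r = 0.83) and Gm49759 (r = 0.83). For Sgcb they were Adipor2, March6 and Ell2 (r from 0.74 to 0.75), for Sntb1 Sik2, Sort1 and Gm9920 (r of 0.78 for each), and for Dtna Fxr1, Map2k4 and mt-Nd5 (r from 0.76 to 0.78).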

How the data were processed

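The authors trimmed reads with Trimmomatic, used GSNAP to align them to mm10 (GRCm38), and obtained a count for every gene by htseq-count. The tables they deposited hold raw counts as whole numbers, without normalization, for 9 libraries in each of 4 groups. FastQC and SAMtools are also named in the submitters' processing notes. Tool versions, the annotation release and the counting mode are not given in the sources used here. Libraries were non-stranded, and each column belongs to a sample of the series, with 0 columns of other samples. Symbols, coordinates and lengths came from GENCODE M21 (GRCm38) and matched 51719 of 51912 IDs; 1 list gene was matched through a RefSeq synonym.

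Counts were tested in R 4.3.3 with edgeR 4.0.16 (filterByExpr with minimum count 10 and minimum total count 15, TMM factors, glmQLFit and glmQLFTest) and Benjamini-Hochberg adjustment over all genes tested. Genotypes were compared within the 18 libraries of a muscle, and muscles and the interaction in a fit over 36 libraries. Genes were called at adjusted p under 0.05 and at least 1.2-fold, the interaction at adjusted p alone. Standard errors are the absolute log2 fold change divided by the square root of the quasi-likelihood F. Log2 CPM used a prior count of 2. The procedure was tested on simulated data. DESeq2 1.42.0, limma-voom (limma 3.58.1), other scalings and filters, blocks and each library left out in turn were alternatives. The length offset and the fit without 3 TA libraries (long-minus-short measure under −0.25) were chosen after seeing the data.

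At these depths counting error is small for the members except Sntb1, and p-values measure the spread among libraries. For 16 label numbers there is a library of each muscle, so some animals may be shared. No library was a copy of another, since chi-square divided by its degrees of freedom was at least 11.7 in the 306 pairs within a muscle.

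The members and lists were chosen with earlier results of these data known. Genes named are the 9 members, Musk, list genes called by genotype, the 3 highest and 3 lowest called list genes between muscles in WT, and the 3 genes most like each member. An item under this rule is not reported here. Collagen VI genes and single fibroblast and tendon markers were named after their values were seen. Marker lists were read as summed CPM and calls.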

Additional observations from a re-analysis of the deposited data

Results flagged for a closer look

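Within the 36 sets of 9 libraries (9 genes in 4 groups), 4 held a library whose gap to its nearest neighbor passed Dixon's 95% limit for 9 values, and chance alone gives such a library in about 1 of 20 sets. In ∆Ig3-MuSK TA, replicate 3 was the lowest for Dag1, at 119.4 CPM with the next library at 150.7 CPM, and for Sgcd, at 8.06 CPM with the next at 14.3 CPM. It is among the 3 TA libraries with a low long-minus-short measure. In WT TA, replicate 5 was the highest for Dtna, at 86.6 CPM with the next at 78.1 CPM, and it held the lowest long-minus-short measure of the TA. Replicate 9 of WT TA was the highest for Bgn, at 46.7 CPM with the next at 34.2 CPM, and its fibroblast marker sum of 797.6 CPM was the highest in the TA.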

How the results depend on the processing

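The number of members called stayed at 0 between genotypes in the soleus under every alternative, at 0 in the TA except for 1 in the fit over all 36 libraries, at 7 to 8 between muscles in WT and at 5 to 6 in ∆Ig3-MuSK. The interaction count was 1 with limma-voom and sample quality weights and ranged from 0 to 1 when each library was left out. With the replicate block the TA and soleus counts of called members were 0 and 0, and with the label number as a replicate block they were 7, 5 and 0 for WT, ∆Ig3-MuSK and the interaction; the block changed no member's call. Same-numbered WT and ∆Ig3-MuSK libraries deviated together by more than r = 0.1 in 2 of 9 TA and 3 of 9 soleus pairs, and in 1 of 9 in each muscle a library was most like its own number. Same-numbered TA and soleus libraries did so in 7 of 16 pairs, with 7 most like their own number.

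Over all genes the test moved the counts more than 1.5 times. DESeq2 called 192 genes for the TA, 489 for the soleus and 312 for the interaction, and limma-voom 150, 653 and 1352, where edgeR called 3, 185 and 0. The single fit called 692 TA and 312 soleus genes, the replicate block 0 and 347, library totals alone 4 and 317, upper-quartile factors 7 in the TA, no filter 10 in the TA, the length offset 8 in the TA, and the fit without 3 TA libraries 25. Higher against lower calls in WT muscle were 6297 to 5682, and 8638 to 3615 with library totals alone. In the soleus they were 71 to 114 between genotypes, 48 to 269 with library totals and 91 to 256 with the replicate block.

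Directions reversed in small differences that had not been called, and the cause was not tested. With library totals alone these were, in the TA, Sgcb (0.0073), Dtna (0.035) and Bgn (0.017), in the soleus Sgca (−0.000421) and Dtna (−0.00427), between muscles in WT Sgca (0.035), and in the interaction Sgcb (−0.12) and Dtna (−0.039). With limma-voom they were Dtna (0.0074) and Bgn (0.024) in the TA and Sntb1 (0.00191) in the interaction. The length offset turned Dmd in the soleus (0.026), and leaving 3 TA libraries aside turned Dtna in the TA (0.019) and Sgcd between muscles in ∆Ig3-MuSK (−0.00291). With each library left out, the log2 fold change ranged from −0.027 to 0.0079 for Dtna and −0.070 to 0.067 for Bgn in the TA, from −0.054 to 0.029 for Dmd in the soleus, and from −0.000364 to 0.033 for Sgcb in the interaction.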

Other observations

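Marker lists of other cell types and states gave further values. Acta2, a smooth muscle actin gene, was the only marker called between genotypes, running from 42.1 to 56.7 CPM in WT soleus and from 28.1 to 48.0 CPM in ∆Ig3-MuSK soleus (log2 fold change −0.38, standard error 0.09, adjusted p = 0.0496 by edgeR's quasi-likelihood test). Its sums with the 3 other smooth muscle and pericyte markers ran from 470.8 to 556.8 CPM and from 458.1 to 577.3 CPM. Between muscles in WT, 5 of 5 slow-fiber, 4 of 4 endothelial, 4 of 4 smooth muscle and pericyte, 4 of 4 adipocyte, 2 of 3 satellite cell, 3 of 4 synaptic, 5 of 5 immediate early and 1 of 4 macrophage markers were called higher in the soleus, with 0 of 4 Schwann cell markers. Of the fast-fiber markers 4 of 5 were lower, and 1 of 4 synaptic markers was lower. Of all genes, 30.2% were called higher and 27.3% lower in this comparison. Between the genotypes of the soleus, 0 of 4 adipocyte markers were called, at a median log2 fold change of 0.62 over the list. Immediate early sums ran from 36.1 to 126.4 CPM in WT soleus and from 26.6 to 92.1 CPM in ∆Ig3-MuSK soleus, with 3 of 5 markers lower at an unadjusted p under 0.05, where 10.1% of all genes were lower.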
